A study of Mus musculus with 192 samples.

Results

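Foxo1 and mTor are the 2 genes downstream of the kinase Akt whose mRNA is described here, out of 43 target genes counted in the brain of L44 mice. They were taken by name as 2 of the genes below Akt in that set, which also holds Gsk3a, Gsk3b and Pde3b. Both were measured in all 192 RNA pools, made from 341 tissue samples of male mice on the FVB/n background. The L44 line carries a transgene for tripro-hA, a human amylin variant that does not aggregate, driven by the rat insulin 2 promoter, which is active in pancreatic beta cells and is known to be active in some brain cells as well. Hemizygous (HEM) and homozygous (HOM) L44 mice were compared with nontransgenic (NON) littermates or age-matched mice. Tissue was taken at T1 (100 days, prediabetic), at T2 (the onset of diabetes, which came at varying ages) and at T3 (400 days, called post-diabetic, although the labels mark only a part of the HEM and HOM pools, and in each region 3 of 6 NON pools, as previously diabetic). Some T2 mice were younger than 100 days and all were younger than 400 days. The mice of a T2 pool could differ widely in age, so that T2 is not a fixed age between T1 and T3. Collection was in the late morning (AM) or the early afternoon (PM), and 12 T1 HEM pools, 3 per region, carry no collection time. Each pool held RNA from 1 mouse, or from 2 mice matched in genotype and in collection time, in equal amounts. Of the pools, 46 are from hindbrain with the cerebellum, 49 from midbrain, 48 from the left cortex and 49 from the right. The block called midbrain is the rest of the brain, including the forebrain and the hypothalamus.

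Akt is the kinase through which insulin, and in part leptin, act on nerve cells. It phosphorylates Foxo1, a forkhead transcription factor, and so keeps it out of the nucleus; in hypothalamic neurons Foxo1 in the nucleus is known to favour the appetite-stimulating gene Agrp and to oppose Pomc, the gene of an appetite-suppressing hormone. mTor is a kinase that Akt activates through an intermediate protein complex, and it drives protein synthesis and growth and takes part in hypothalamic sensing of nutrients and leptin. Akt acts on both proteins after they are made, so mRNA counts give the amount of transcript and not the activity of either protein.

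Counts came from the NanoString nCounter, which tags and counts individual mRNA molecules with a probe per gene and without amplification. They are given as normalised counts: the raw count divided by the geometric mean of 3 reference genes in the same pool. Within a region they are scaled to the mean of that reference value in the region, and between regions to its mean over all pools. The 2 probes differ, so no level of Foxo1 is set against a level of mTor. The sum over the target genes ranged from 3489 to 525264 counts per pool, with medians of 151091 in hindbrain, 245328 in midbrain, 278654 in left cortex and 414121 in right cortex. Raw counts of Foxo1 ran from 63 to 7610 and those of mTor from 58 to 12071, and 0 of the 384 counts of the 2 genes lay at or under the background of the negative control probes.

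HOM AM pool 9, NON AM pool 7 and NON PM pool 5/6 of the T3 hindbrain held little RNA, with reference values of 130.5, 267 and 511 against a hindbrain median of 4783, and the main comparisons of Foxo1 and mTor in hindbrain are also given without them. Those of the other genes, of transgene dose, of previous diabetes and of collection time within single groups are given with them alone. The median sum of target counts was lower at T3 than at T2 in hindbrain (89256 and 174131), left cortex (151641 and 319546) and right cortex (144686 and 458443). In midbrain it was 238912 at T3, 277790 at T2 and 223174 at T1. The labelled regions were checked with genes of hypothalamic neurons. Mch, the gene of melanin-concentrating hormone, averaged 23187 normalised counts in midbrain pools, 151 in hindbrain and 94.99 and 103 in left and right cortex, and Hcrt, the orexin precursor, averaged 765, 33.2, 26.5 and 28.7 in the same order. Both were high in the block that contains the hypothalamus, whereas Hdc, the histamine-forming enzyme, was as high in hindbrain (239 ± 51.9, SD, n = 46) as in midbrain (251 ± 51.1, n = 49).

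Foxo1 was highest in midbrain and close to equal in the other regions, whereas mTor was highest in the cortices and lowest in hindbrain. On the scale common to all regions, Foxo1 averaged 5677 ± 465 normalised counts in midbrain (SD, n = 49 pools; lowest 4235, median 5709, highest 6679). It averaged 2964 ± 397 in hindbrain (n = 46; lowest 2203, median 2929, highest 3987), 3024 ± 786 in left cortex (n = 48; lowest 2064, median 2869, highest 5601) and 3022 ± 661 in right cortex (n = 49; lowest 2105, median 2876, highest 4537). The lowest midbrain pool was thus above the highest hindbrain pool, while a few cortical pools reached into the midbrain range. mTor averaged 6235 ± 1048 in left cortex (lowest 4017, median 6529, highest 7860) and 6152 ± 879 in right cortex (lowest 4291, median 6378, highest 7496). It averaged 5355 ± 392 in midbrain (lowest 4305, median 5366, highest 6245) and 4462 ± 1101 in hindbrain (lowest 1406, median 4906, highest 6346). The mTor ranges of all 4 regions overlapped.

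**Figure D1:**
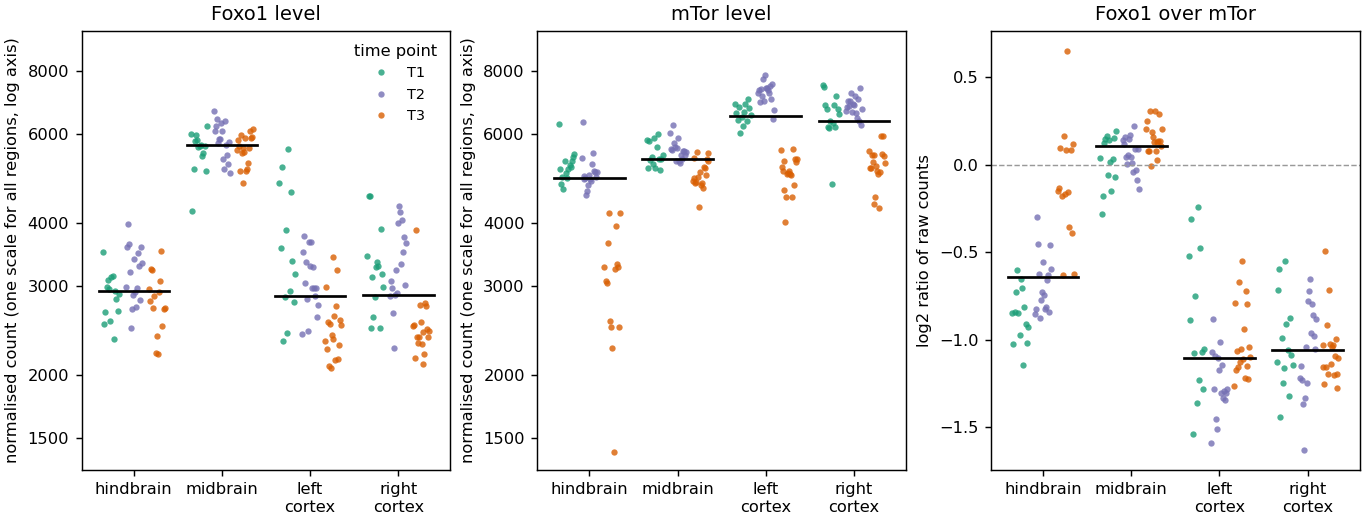
Normalised counts of Foxo1 (left panel) and mTor (middle panel) on one scale for all regions (log axes), and the log2 ratio of their raw counts (right panel), with one point per pool coloured by time point and a black line at the median of the region. The Foxo1 medians are 5709 in midbrain and 2869 to 2929 elsewhere, and the lowest mTor points are T3 pools of the hindbrain.

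Regions were compared in the 35 pools measured in all 4 of them, with the pool as a replicate block, using edgeR's quasi-likelihood test and Benjamini-Hochberg adjustment over the 43 target genes of a comparison. A gene is said to rise, fall or change, or to be called, where this adjusted p was under 0.05. Foxo1 was higher in midbrain than in hindbrain in 35 of 35 pools, by a log2 fold change of 0.95 ± 0.06 (SE, adjusted p = 1.39e-30 by edgeR), a 1.93-fold difference. It was lower in left cortex than in midbrain in 34 of 35 pools (-0.85 ± 0.06, adjusted p = 3.23e-27 by edgeR) and lower in right cortex than in midbrain in 34 of 35 pools (-0.85 ± 0.06, adjusted p = 3.75e-27). With scaling to the positive control probes, which leaves the amount of RNA in each pool uncorrected, the right cortex difference was -0.06 (adjusted p = 0.704), and that call was lost. The difference of left cortex from hindbrain was 0.10 on the log2 scale, with a 95% interval from -0.01 to 0.21, and that of right cortex from hindbrain was 0.10, from -0.01 to 0.21. Neither passed the test, and the direction of a call depended on the scaling. With TMM (trimmed mean of M-values over the target genes) in place of the reference genes both were called lower than hindbrain (-0.17 and -0.18, adjusted p = 9.12e-04 and 6.15e-04), and so were the left cortex with DESeq2, whose size factors also come from the target genes (-0.12, adjusted p = 0.027) and the right cortex without the third reference gene (-0.12, adjusted p = 0.0431). Both were called higher without B2m among the reference genes (0.21 and 0.22, adjusted p = 7.4e-04 and 5.55e-04), without a second reference gene (0.19 and 0.21), with positive controls (0.73 and 1.04), in NON pools only (0.22 and 0.21) and in T1 pools only (0.32 and 0.22). With the pools of little RNA left out, Foxo1 exceeded its hindbrain level by 0.94 in midbrain, 0.09 in left cortex (adjusted p = 0.133) and 0.09 in right cortex (adjusted p = 0.123).

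mTor was higher in left cortex than in hindbrain in 35 of 35 pools (log2 fold change 0.49 ± 0.04, SE, adjusted p = 1.12e-21 by edgeR) and higher in right cortex than in hindbrain in 34 of 35 (0.45 ± 0.04, adjusted p = 1.49e-19). The cortices were also above midbrain, by 0.26 ± 0.04 on the left (adjusted p = 2.06e-09 by edgeR) and 0.22 ± 0.04 on the right (adjusted p = 1.67e-07). In T3 pools alone these last differences were -0.07 and -0.0021 and did not pass the test. Midbrain exceeded hindbrain by 0.22 ± 0.04 (adjusted p = 2.31e-07 by edgeR), in 28 of 35 pools, but this difference was -0.09 under TMM (adjusted p = 0.00892, a call in the other direction) and -0.04 with DESeq2 (adjusted p = 0.148). With the pools of little RNA left out, mTor exceeded its hindbrain level by 0.18 in midbrain, 0.44 in left cortex and 0.40 in right cortex. All 3 calls were kept. The left and right cortex did not differ beyond their spread in Foxo1 (right minus left 0.0016, 95% interval -0.11 to 0.11) or in mTor (-0.04, from -0.12 to 0.04) over all pools. In T2 pools only, mTor was called lower on the right (-0.09, adjusted p = 0.0101). Foxo1 was thus called in 3 and mTor in 5 of 6 region comparisons. The share of all target genes called was 85.1% over the 5 pairs other than the cortices and 4.65% between the cortices, and a call between regions is therefore usual in this gene set.

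The ratio of the 2 raw counts in a pool needs no reference gene, and its differences between regions were compared within pools by permuting signs (two-sided, 100000 permutations, adjusted over 6 comparisons). The log2 ratio of Foxo1 over mTor was higher in midbrain than in hindbrain by 0.70 ± 0.32 (SD over 35 pools), in 33 of 35 pools. It was lower in left cortex than in midbrain by -1.12 ± 0.39 and lower in right cortex than in midbrain by -1.08 ± 0.30, each in 35 of 35 pools. It was also lower in left cortex (-0.42 ± 0.46) and in right cortex (-0.38 ± 0.44) than in hindbrain. All 5 differences had an adjusted permutation p of 1.2e-05, the smallest these permutations can give for them, and the difference between the cortices was 0.04 ± 0.40 (adjusted permutation p = 0.546). With the pools of little RNA left out, the ratio differed from that in hindbrain by 0.76 in midbrain, -0.37 in left cortex and -0.31 in right cortex.

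Genes upstream of Akt did not share the Foxo1 pattern as a group. Of the 8 genes from the insulin receptor to Akt, 3 were higher and 3 lower in midbrain than in hindbrain, with a median log2 fold change of -0.02 against 0.35 over all 43 genes, of which 31 were higher and 6 lower. Pdk1, a kinase that activates Akt, was higher in midbrain by 0.84 (adjusted p = 2.99e-36 by edgeR), and Irs1, an adaptor of the insulin receptor, was lower by -0.56 (adjusted p = 1.75e-19). Among the other Akt substrates, the kinases Gsk3a (0.19) and Gsk3b (0.29) were higher and Pde3b, a phosphodiesterase that Akt activates, was lower (-0.97) in midbrain. Both neuropeptide genes that Foxo1 acts on were higher in midbrain than in hindbrain, Agrp by 0.97 (adjusted p = 2.15e-08) and Pomc by 0.75 (adjusted p = 2.59e-05). In left cortex against midbrain 4 of the 8 genes from the insulin receptor to Akt were higher and 1 lower (median 0.20 against 0.0003 over all genes), and of the 7 genes from the leptin receptor to Stat3, 4 were higher and 1 lower (median 0.27). Over all 6 region comparisons, the 8 insulin pathway genes were called higher in 21 and lower in 9 of 48 tests, the 3 other Akt substrates in 10 and 3 of 18, and the 7 leptin pathway genes in 26 and 3 of 42, beside 113 and 72 of 258 for all genes.

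Replicate pools differed least for mTor in left cortex (4.73%) and midbrain (4.80%) and most for Foxo1 in left cortex (21.0%), as the SD of log2 values within groups of one time point, genotype and collection time. For Foxo1 this spread was 8.72% in hindbrain, 7.71% in midbrain and 15.7% in right cortex, and for mTor it was 16.3% in hindbrain and 6.73% in right cortex. The labels name no dissection or extraction batches, so p-values measure the spread between these pools.

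In hindbrain, Foxo1 was higher in transgenic than in NON pools. Averaged over groups matched for time point and collection time, the log2 fold change over NON was 0.21 ± 0.04 in HEM (SE, 12 against 16 pools, adjusted p = 0.00146 by edgeR) and 0.19 ± 0.04 in HOM (13 against 18 pools, adjusted p = 0.00341), which are changes of +15.7% and +13.8%. Of the 43 genes 18.6% were called for HEM and 4.65% for HOM in this region, and over all 4 regions and both genotypes 10.8% were called. The median over all genes was 0.05 for HEM and 0.04 for HOM. Both Foxo1 calls were kept whichever single hindbrain pool was left out, and without the 3 pools of little RNA the values were 0.20 (adjusted p = 0.00241) and 0.17 (adjusted p = 0.00728). Scaling by TMM gave 0.14 (adjusted p = 0.0718) for HEM and 0.16 (adjusted p = 0.0474) for HOM, and leaving out a second reference gene gave 0.13 for HOM (adjusted p = 0.0775). Scaling to the positive control probes ended both calls with larger estimates (0.77 and 0.54, adjusted p = 0.191 and 0.514).

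The values of single groups follow. In bulk pools, fewer cells that express a gene and less RNA per cell cannot be told apart. At T1 AM the HOM pools had 2336 and 2210 normalised counts of Foxo1 and the NON pools 2117 and 1953. At T1 PM the HEM pools had 2470 and 2546, the HOM pools 2424 and 2388, and the NON pools 2444, 2582 and 2601. The HOM pools lay above the NON pools in the morning and below them in the afternoon of T1, while HEM and NON overlapped.

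At T2 AM the HEM pools had 2472 and 2644, the HOM pools 2882 and 2325, and the NON pools 2051 and 2254 normalised counts. At T2 PM the 3 HEM pools had 2968, 3294 and 3005 and the 3 HOM pools 2712, 2961 and 2758. The 5 NON pools of T2 PM had 2237, 2378, 2808, 2417 and 2460. At diabetes onset every HEM pool thus lay above every NON pool of the same collection time, and the HOM pools did so in the morning only.

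At T3 AM the HEM pools had 2242 and 2444, the HOM pools 2069, 2236 and 2240, and the NON pools 1830 and 1820 normalised counts of Foxo1. At T3 PM the HEM pools had 2664, 2315 and 2685, the single HOM pool 2909, and the NON pools 1977, 2370, 2414 and 2544. At 400 days all transgenic AM pools lay above both NON AM pools, one of which held little RNA, whereas the HEM and NON ranges overlapped in the afternoon. HEM was higher than NON on average in 4 of 5 and HOM in 5 of 6 groups matched for time point and collection time. For mTor in hindbrain these counts were 4 of 5 and 6 of 6, and they were not made for the other target genes.

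**Figure D2:**
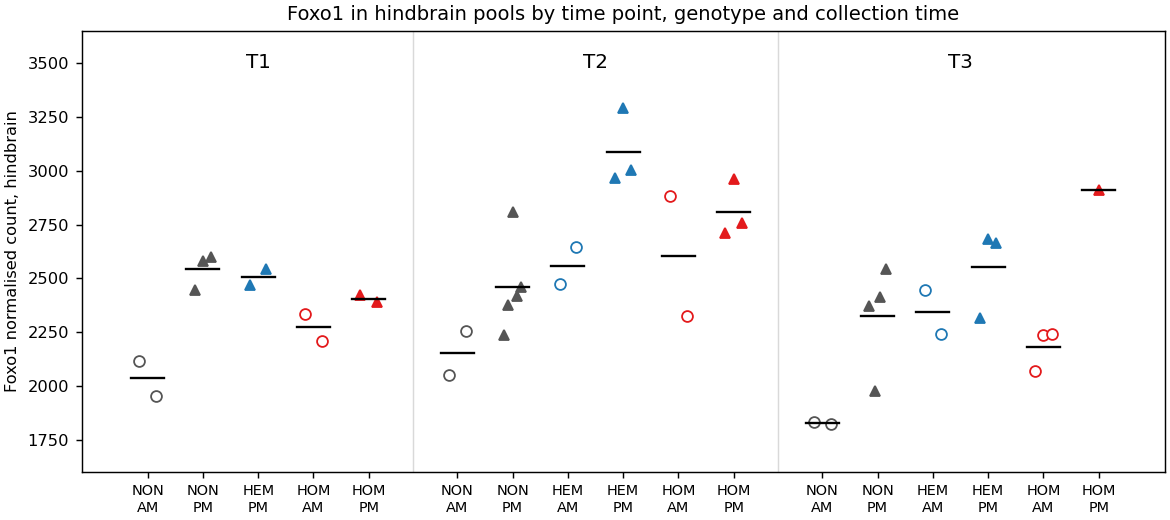
Foxo1 normalised count in each hindbrain pool with a known collection time, by time point, genotype and collection time, with open circles for AM, filled triangles for PM and a black line at the group mean. At T2 PM the HEM pools (2968 to 3294) lie above the NON pools (2237 to 2808), and PM means lie above AM means in all groups that have both.

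Tested group by group, Foxo1 was called in 3 of 39 genotype comparisons over all regions and mTor in 4 of 39, all of them higher in the transgenic mice, beside 4.71% of the tests over all genes. None of these calls exceeded a log2 fold change of 1. With DESeq2 the counts were 0 and 2. In hindbrain Foxo1 was higher in HEM at T2 PM by 0.33 ± 0.08 (adjusted p = 0.0119 by edgeR; 4.65% of genes called in this comparison) and at T3 AM by 0.36 ± 0.11 (adjusted p = 0.0213; 27.9% of genes called). The T2 PM call was lost without pool 7/12 (0.28, adjusted p = 0.0983). The T3 AM call was lost without NON pool 7 (0.36, adjusted p = 0.0983) and without either HEM pool (0.30, adjusted p = 0.109, and 0.42, adjusted p = 0.0564), and without all pools of little RNA it was 0.36 (adjusted p = 0.0596), while the T2 PM value was then 0.33 (adjusted p = 0.00514). Both calls were also lost with DESeq2 (0.26 and 0.22, adjusted p = 0.119 and 0.238) and with positive controls (0.32 and 2.13, adjusted p = 0.988 and 0.0812). They were lost at estimates of similar size without B2m (0.30 and 0.35, adjusted p = 0.0517 and 0.0512) and with only the 2 groups in the fit (0.33 and 0.36, adjusted p = 0.0582 and 0.392). The T3 AM call was lost under TMM too (0.18, adjusted p = 0.318).

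mTor in hindbrain was spread most at T3, and its differences between genotypes lay there. At T3 AM the HEM pools had 3466 and 2710 normalised counts of mTor, the HOM pools 3457, 2707 and 2058, and the NON pools 2056 and 1162. The HOM pool at 2058 and the NON pool at 1162 are those of little RNA, with 58 and 67 raw counts of mTor. At T3 PM the HEM pools had 3016, 2543 and 2511, the HOM pool 2745, and the NON pools 2116, 3257, 1868 and 2685, so that the genotypes overlapped in the afternoon.

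At T3 AM mTor was higher in HEM by 0.90 ± 0.21 (adjusted p = 0.00277 by edgeR) and in HOM by 0.76 ± 0.20 (adjusted p = 0.00697; 20.9% of genes called). Without NON pool 7 these were 0.59 (adjusted p = 0.0983) and 0.45 (adjusted p = 0.234). Without all 3 pools of little RNA they were 0.59 (adjusted p = 0.0318) and 0.58 (adjusted p = 0.0551), with a lone NON pool assumed to vary like the other groups. The HEM call was also lost without HEM pool 12 (0.71, adjusted p = 0.0564) and the HOM call without HOM pool 12 (0.55, adjusted p = 0.0608). Both were lost with only the 2 groups in the fit (0.92 and 0.76, adjusted p = 0.392 and 0.485) and with positive controls (2.49 and 1.86, adjusted p = 0.0812 and 0.24), and the HOM call with only the previously diabetic transgenic pools (0.55, adjusted p = 0.067). Both passed under TMM and with DESeq2. Averaged over groups, hindbrain mTor was higher by 0.24 ± 0.08 in HEM (adjusted p = 0.0353 by edgeR) and 0.20 ± 0.08 in HOM (adjusted p = 0.0688), and without the pools of little RNA by 0.15 (adjusted p = 0.0952) and 0.16 (adjusted p = 0.098). The HEM average was lost in 10 of the single-pool exclusions, under TMM (0.17, adjusted p = 0.207), with DESeq2 (0.18, adjusted p = 0.0885), without B2m (0.24, adjusted p = 0.0798) or a second reference gene (0.21, adjusted p = 0.0852), and with positive controls (0.73, adjusted p = 0.191). The HOM average was called without the third reference gene (0.22, adjusted p = 0.0297) and without T3 NON pool 4/11 (0.29, adjusted p = 0.00641), T3 NON pool 12 (0.23, adjusted p = 0.0236) or T3 HOM pool 9 (0.23, adjusted p = 0.037). At T1 and T2 the mTor means of the transgenic groups lay between -0.09 and 0.17 of NON on the log2 scale, and none was called.

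In midbrain the differences were smaller. At T3 AM the 5 HOM pools had 6221, 5722, 6185, 5977 and 6005 normalised counts of Foxo1 and the 3 NON pools 5204, 4868 and 5976, a log2 fold change of 0.17 ± 0.06 (adjusted p = 0.0462 by edgeR; 27.9% of genes called). The highest NON pool lay above the lowest HOM pool, leaving out NON pool 3/4 gave 0.11 (adjusted p = 0.397), and the adjusted p was above 0.05 in 21 of the single-pool exclusions. For mTor the HOM pools had 5394, 5208, 5051, 5440 and 5575 and the NON pools 4759, 4365 and 4828, without overlap (0.20 ± 0.05, adjusted p = 0.00472 by edgeR). This call was lost without NON pool 3/4 (0.15, adjusted p = 0.0727), under TMM (0.07, adjusted p = 0.416), with DESeq2 (0.06, adjusted p = 0.548) and without B2m (0.09, adjusted p = 0.443). Under the same settings Foxo1 was at 0.05, 0.03 and 0.07, with no call. The median of all genes in this comparison was 0.12, so that mTor lay 0.07 and Foxo1 0.05 above it.

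Averaged over the groups of the midbrain, mTor was higher in HEM by 0.08 ± 0.03 (adjusted p = 0.018 by edgeR; 34.9% of genes called) and Foxo1 by 0.07 ± 0.03 (adjusted p = 0.0937). The averages for HOM were 0.02 (95% interval -0.04 to 0.07) for mTor and -0.0062 (-0.07 to 0.06) for Foxo1. The mTor call in HEM was lost without HEM pool 8/10 of T3 (0.06, adjusted p = 0.106), HEM pool 4/6 of T2 (0.07, adjusted p = 0.0601) or NON pool 7/8 of T2 (0.07, adjusted p = 0.0587). It was 0.02 under TMM (adjusted p = 0.563) and with DESeq2 (adjusted p = 0.559), and 0.04 (adjusted p = 0.381) without the third reference gene. The Foxo1 average in HEM was called without B2m (0.11, adjusted p = 0.0158), with positive controls (0.14, adjusted p = 0.0245), and without T3 NON pool 7, T2 HEM pool 9 or T2 NON pool 1/3 (0.09 to 0.10, adjusted p from 0.0264 to 0.035). With positive controls both HOM averages were called too, at 0.15 for mTor (adjusted p = 0.00298) and 0.13 for Foxo1 (adjusted p = 0.0288).

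In the cortices Foxo1 was called in 0 of 19 genotype comparisons by edgeR and in 0 by DESeq2, and 1 had an unadjusted p under 0.05. Over all genes edgeR called 6 of 387 such tests in left cortex and 25 of 430 in right cortex. Calls were thus few for the whole gene set, and their lack for Foxo1 does not set it apart. Its averages were -0.13 (95% interval -0.36 to 0.09) for HEM and -0.02 (-0.22 to 0.19) for HOM in left cortex, and -0.15 (-0.31 to 0.01) and 0.0082 (-0.15 to 0.17) in right cortex. With positive controls the HOM average in left cortex was 0.42 and called (adjusted p = 0.0252). The mTor averages for HEM and HOM were -0.01 and -0.01 in left cortex and 0.05 and 0.07 in right cortex. With positive controls those for HOM were 0.44 and 0.38, both called (adjusted p = 0.00623 and 0.0286 by edgeR). Among the genotype comparisons of single groups mTor was called once, in right cortex at T3 AM. There the HOM pools had 6173, 6965, 6422, 6989 and 6372 and the NON pools 5030, 5292 and 5948 normalised counts, without overlap. The log2 fold change was 0.28 ± 0.07 (adjusted p = 0.00905 by edgeR), in a comparison in which 34.9% of genes were called and the median of all genes was 0.24. Without NON pool 10 it was 0.23 (adjusted p = 0.177). It was 0.10 under TMM (adjusted p = 0.839) and 0.05 with DESeq2 (adjusted p = 0.982). The call was also lost with positive controls (0.25, adjusted p = 0.763) and with only the 2 groups in the fit (0.28, adjusted p = 0.0937).

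**Figure D3:**
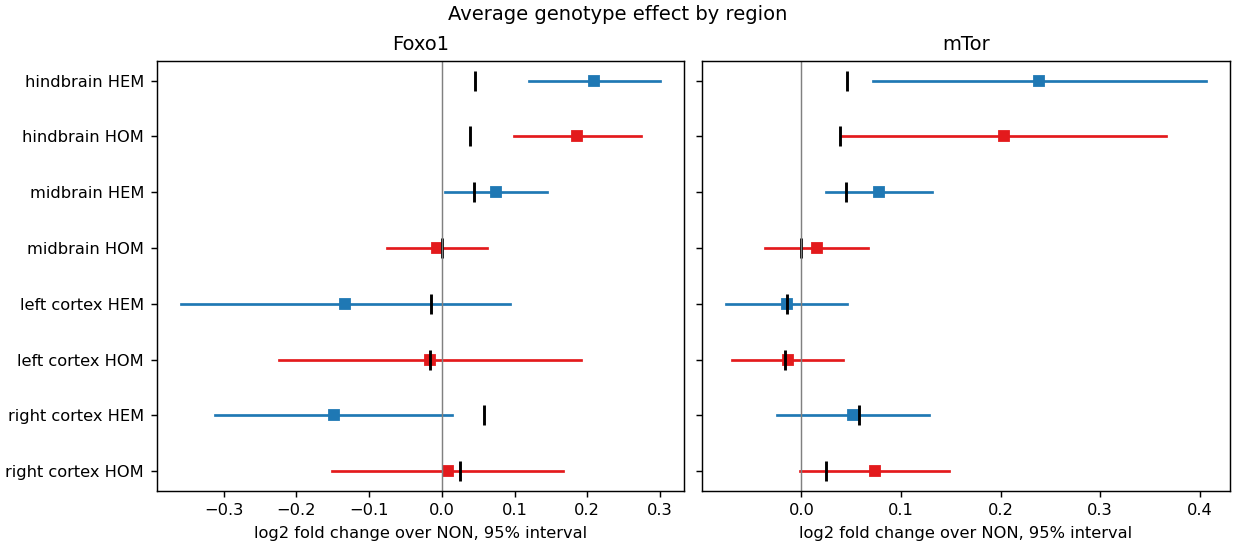
Average log2 fold change of HEM (blue) and HOM (red) over NON in each region for Foxo1 (left) and mTor (right), with squares for estimates, lines for 95% intervals and black ticks for the median of all 43 target genes. The intervals of Foxo1 in hindbrain (0.12 to 0.30 for HEM, 0.10 to 0.27 for HOM) lie above 0 and above the ticks, and the scales of the panels differ.

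Whether the hindbrain differed from another region in its genotype effect was tested on the differences between regions within pools, an alternative chosen after seeing the data, with genotype labels permuted within groups and p adjusted over 18 tests of both genes. With all pools, the Foxo1 effect of HEM was larger in hindbrain than in right cortex by 0.46 on the log2 scale (adjusted exact permutation p = 0.00536) and than in left cortex by 0.41 (adjusted exact permutation p = 0.0233). The effect of HOM was larger than in midbrain by 0.17 (adjusted exact permutation p = 0.0233). The other Foxo1 tests did not pass, with 0.20 for HEM against midbrain (adjusted exact permutation p = 0.0586), and 0.20 and 0.07 for HOM against left and right cortex (adjusted exact permutation p = 0.183 and 0.358). Without the pools of little RNA the difference from right cortex for HEM was 0.48 (adjusted exact permutation p = 0.0143), that from left cortex 0.35 (adjusted exact permutation p = 0.256) and that of HOM from midbrain 0.18 (adjusted exact permutation p = 0.0538). For mTor the effect of HOM was larger in hindbrain than in midbrain by 0.33 (adjusted exact permutation p = 0.0239) and than in left cortex by 0.33 (adjusted exact permutation p = 0.0233), but not beyond the spread than in right cortex (0.24, adjusted exact permutation p = 0.355). Its HEM effect did not pass against any region, with 0.29, 0.39 and 0.37 against midbrain, left and right cortex (adjusted exact permutation p = 0.231, 0.117 and 0.321). Without the pools of little RNA the 2 mTor differences that passed were 0.12 and 0.09 (adjusted exact permutation p = 0.0538 for both).

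The ratio of Foxo1 over mTor did not differ between genotypes beyond the spread of pools in any of 8 tests, with differences from -0.20 to 0.02 on the log2 scale and a lowest adjusted permutation p of 0.655, for HEM in right cortex. In hindbrain it was -0.05 for HEM and -0.03 for HOM, and 0.04 and 0.01 without the pools of little RNA. Between HOM and HEM, which differ in transgene dose, edgeR and DESeq2 called 0 of 15 comparisons for each gene (0.775% of all tests called). Foxo1 differences ran from -0.33 to 0.61, with 3 of 15 at an unadjusted p under 0.05, and mTor differences from -0.14 to 0.15, with 0 of 15. At T1, HEM pools taken without regard to collection time differed from NON by -0.06 to 0.24 for Foxo1 and -0.02 to 0.19 for mTor, and edgeR called 0 of 4 for each (1.74% of all tests called), with 0 and 1 at an unadjusted p under 0.05. At T3, pools labelled previously diabetic were set against the others within HEM and within NON. In the hindbrain of HEM mice this was 4 pools against 1, and the lone pool was assumed to vary like the other groups, so that this test could show little. Differences ran from -0.25 to 0.32 for Foxo1 and from -0.32 to 0.15 for mTor, and edgeR called 0 of 8 for each (3.78% of all tests called), with 0 and 1 at an unadjusted p under 0.05. Whether a genotype effect differed between AM and PM at T2, or between T1 and T2 for HOM, was tested in 12 comparisons per gene. By edgeR 0 were called for either, with 0 at an unadjusted p under 0.05, and over all genes 0% were called (11 of 516 at an unadjusted p under 0.05).

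Most genotype tests of the genes around Foxo1 and mTor in the pathway were not called, as for all genes. In the insulin, Akt substrate and leptin lists the share called was not below that of all genes. The 8 genes from the insulin receptor to Akt were called higher in 16 and lower in 0 of 312 genotype tests, with a median of 0.02, beside 74 and 5 of 1677 and a median of 0.03 for all genes. Irs2, an adaptor of the insulin receptor, was called in 4 and Akt1 in 3 of 39. The 3 other Akt substrates were called higher in 10 of 117 (Gsk3b in 4, Gsk3a and Pde3b in 3 each), the 7 leptin pathway genes in 18 of 273 (Stat3, the transcription factor that leptin activates, and Ptp1b, a phosphatase that opposes insulin and leptin, in 5 each), and of the neuropeptide genes Agrp was called lower in 2 of 39 and Pomc in 0 of 39. In the hindbrain average for HEM, Irs2 (0.18, adjusted p = 0.0145 by edgeR), Gsk3a (0.09, adjusted p = 0.0179) and Gsk3b (0.11, adjusted p = 0.0296) rose with Foxo1 and mTor, while Akt2 had 0.24 (adjusted p = 0.0511) and Akt1 0.13 (adjusted p = 0.181). Agrp, the gene that nuclear Foxo1 favours, had -0.75 (adjusted p = 0.0728) and Pomc 0.55 (adjusted p = 0.38). Hindbrain Agrp was near background, with a median of 37.9 normalised counts on the scale common to all regions, and exceeded background in 40 of 46 pools. Its value includes the pools of little RNA, and the part of background in it was not tested.

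Against the reference genes, mTor of NON mice was lower at T3 than at T1 in all 4 regions, with the largest estimate in hindbrain. Hindbrain mTor averaged 4296 ± 321 normalised counts at T1 (SD, n = 14; lowest 3867, median 4251, highest 5195), 4183 ± 338 at T2 (n = 17; lowest 3766, median 4108, highest 5244) and 2557 ± 630 at T3 (n = 15; lowest 1162, median 2685, highest 3466). Every T3 pool lay below every T1 and T2 pool. In NON mice T3 was below T1 by a log2 fold change of -1.06 ± 0.13 (adjusted p = 1.11e-07 by edgeR; 62.8% of genes called), a 2.08-fold decrease, and without the pools of little RNA by -0.85 (adjusted p = 5.8e-07). The median of all genes in this comparison was -0.54, so that mTor lay -0.51 below it and Foxo1, at -0.14 ± 0.07 (adjusted p = 0.0858; -0.11, adjusted p = 0.199, without those pools), 0.40 above it.

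Hindbrain Foxo1 averaged 2375 ± 248 at T1 (lowest 1953, median 2406, highest 2894), 2625 ± 336 at T2 (lowest 2051, median 2644, highest 3294) and 2317 ± 312 at T3 (lowest 1820, median 2315, highest 2909), and the ranges of the time points overlapped. From T2 to T3 hindbrain Foxo1 was called lower in NON (-0.16) and in HEM PM (-0.27). Both calls were lost without B2m (-0.14 and -0.15, adjusted p = 0.14 and 0.303 by edgeR). The values were 0.22 and 0.09 under TMM and 0.20 and 0.13 with DESeq2. Most target genes lay lower against the reference genes at T3, and the sign of the Foxo1 change depended on the scaling. The NON change from T1 to T3 was 0.36 (adjusted p = 3.16e-04) under TMM and 0.34 (adjusted p = 2.35e-04) with DESeq2's size factors. It was called lower with positive controls (-1.78, adjusted p = 0.00525) and without the third reference gene (-0.18, adjusted p = 0.0355). It was also called lower without T3 NON pool 12 (-0.16, adjusted p = 0.0423). mTor fell under TMM and DESeq2 too, by -0.56 with either. In transgenic pools mTor fell from T1 to T3 by -0.56 ± 0.18 in HEM PM (adjusted p = 0.0261 by edgeR) and -0.66 ± 0.19 in HOM AM (adjusted p = 0.00673), and Foxo1 had 0.03 and -0.06. Leaving out the pools of little RNA gave -0.56 and -0.52 for mTor (adjusted p = 0.00233 and 0.00775) and 0.03 and -0.08 for Foxo1. Under DESeq2 these Foxo1 values were 0.41 and 0.35, both called higher (adjusted p = 0.00923 and 0.0311). Under TMM the HEM value was 0.38 (adjusted p = 0.0384), and the HOM value was not called. Both of these mTor calls were lost under TMM (-0.21 and -0.29, adjusted p = 0.634 and 0.34), with DESeq2 (-0.19 and -0.22, adjusted p = 0.615 and 0.415), without B2m among the reference genes (-0.50 and -0.57, adjusted p = 0.104 and 0.0682), and with positive controls (0.26 and -1.39, adjusted p = 0.918 and 0.233). The HEM call was also lost without the third reference gene (-0.48, adjusted p = 0.0603) and without any 1 of 4 pools, T1 HEM pools 8 and 9/10 and T3 HEM pools 7/9 and 8/10 (-0.52 to -0.60, adjusted p from 0.0703 to 0.158).

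In the other regions the changes of mTor were nearer to those of all genes. From T1 to T3 in NON mice mTor changed by -0.25 ± 0.04 in midbrain (adjusted p = 2.07e-05 by edgeR; median of all genes -0.20), by -0.40 ± 0.04 in left cortex (adjusted p = 2.59e-09; median -0.22) and by -0.33 ± 0.06 in right cortex (adjusted p = 1.15e-05; median -0.33). The midbrain call was lost under TMM (-0.05, adjusted p = 0.573), with DESeq2 (-0.06, adjusted p = 0.32) and without B2m (-0.11, adjusted p = 0.131). The left cortex call was lost with DESeq2 (-0.13, adjusted p = 0.076), and the change in right cortex was 0.04 under TMM and 0.01 with DESeq2. Left cortex mTor first rose from T1 to T2 in NON mice (0.20 ± 0.04, adjusted p = 0.00366; median 0.08), from a mean of 6303 ± 325 (n = 5) to 7251 ± 290 (n = 7) and then fell to 4819 ± 207 (n = 6). The T1 and T2 ranges did not overlap. The call of this rise was lost under TMM (0.07), with DESeq2 (0.13) and without B2m among the reference genes (0.16). It was also lost without NON pool 1/3 of T2 (0.18) or 2/7 of T1 (0.18), and the value was -0.17 with scaling to the positive control probes.

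Foxo1 in NON mice changed from T1 to T3 by -0.08 ± 0.05 in midbrain (adjusted p = 0.211), -0.49 ± 0.16 in left cortex (adjusted p = 0.0099 by edgeR) and -0.35 ± 0.13 in right cortex (adjusted p = 0.0162). The midbrain change was called without the third reference gene (-0.16, adjusted p = 0.00955) and without T3 NON pool 7 (-0.12, adjusted p = 0.0478). The left cortex call was lost under TMM (-0.20, adjusted p = 0.226) and with DESeq2 (-0.21, adjusted p = 0.152), and without T1 NON pool 6 (-0.26, adjusted p = 0.0988) or 2/7 (-0.38, adjusted p = 0.0797). The right cortex value was 0.02 under TMM and -0.0094 with DESeq2, and its call was lost without T1 NON pool 8/9 (-0.29, adjusted p = 0.0808). From T2 to T3 Foxo1 fell by 0.55 in right cortex (adjusted p = 1.6e-04), a call lost under TMM (-0.15, adjusted p = 0.205) and with DESeq2 (-0.16, adjusted p = 0.205). Over all regions and genotypes, mTor was called in 21 of 34 time point comparisons, 20 of them lower at the later time, and Foxo1 in 9 of 34, all lower, beside 29.8% over all genes. The Foxo1 calls had the other direction when the target genes set the scale: with TMM 5 were called and with DESeq2 6, all of them higher at the later time and all in hindbrain or midbrain. For mTor the counts were 7 with TMM, 6 of them lower, and 4 with DESeq2, all lower.

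**Figure D4:**
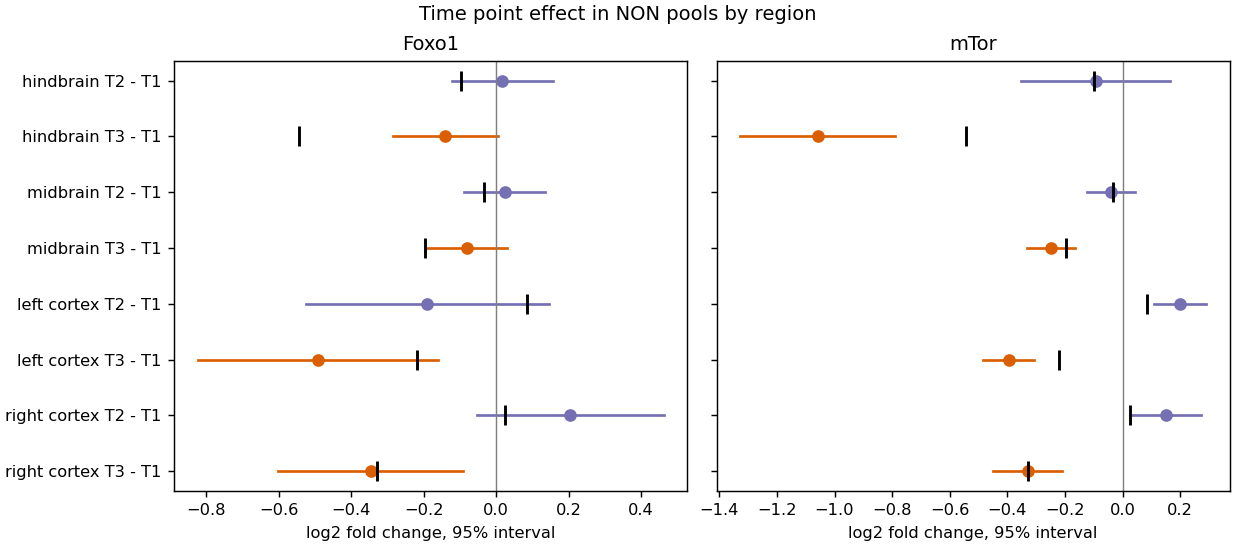
Log2 fold change from T1 to T2 (violet) and from T1 to T3 (orange) in NON pools of each region for Foxo1 (left) and mTor (right), with 95% intervals and black ticks for the median of all 43 target genes. In hindbrain from T1 to T3 mTor (-1.06) lies below and Foxo1 (-0.14) above the tick at -0.54; the scales of the panels differ.

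The ratio of Foxo1 over mTor gives their relative change without a reference gene. In hindbrain its log2 value averaged -0.86 ± 0.15 at T1 (SD, n = 14; lowest -1.14, highest -0.60), -0.68 ± 0.17 at T2 (n = 17; lowest -0.88, highest -0.30) and -0.11 ± 0.33 at T3 (n = 15; lowest -0.63, highest 0.65). The T3 range began near the top of the T1 range and overlapped the upper part of the T2 range. Within genotype and collection time, in a test added after seeing the data and adjusted over 12 comparisons, the ratio rose from T1 to T3 by 0.83 (adjusted exact permutation p = 9.52e-05), from T2 to T3 by 0.61 (adjusted permutation p = 9.52e-05, from the smallest p that 100000 permutations can give) and from T1 to T2 by 0.18 (adjusted permutation p = 0.0183). Without the pools of little RNA the first 2 were 0.70 (adjusted exact permutation p = 5.56e-04) and 0.50 (adjusted permutation p = 1.2e-04), and the last 0.18 (adjusted permutation p = 0.0174). In left cortex it rose from T2 to T3 by 0.31 (adjusted permutation p = 7.6e-04). The remaining 8 tests did not pass, with differences from -0.18 to 0.13. T3 hindbrain pools also held less RNA, and the part of that in the ratio was not tested beyond leaving out the 3 pools.

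Of the pathway genes called between time points, most were lower at the later one against the reference genes. The 8 genes from the insulin receptor to Akt were called lower in 104 and higher in 14 of 272 time point tests, the 3 other Akt substrates in 51 and 0 of 102 and the 7 leptin pathway genes in 98 and 0 of 238, beside 390 and 46 of 1462 for all genes. The medians were -0.17, -0.17 and -0.30, against -0.16 for all genes. Pik3ca, the catalytic subunit of the kinase above Akt, was called lower in 22 and Insr, the insulin receptor, and Gsk3b in 21 each of 34, whereas Akt1 was called higher in 11 and lower in 4. In NON hindbrain from T1 to T3, Pde3b fell by 1.03 (adjusted p = 2.01e-04 by edgeR), Jak2, the kinase of the leptin receptor, by 1.00 (adjusted p = 1.23e-05), Akt2 by 0.88 (adjusted p = 3.8e-06) and Akt1 by 0.35 (adjusted p = 0.00378). Pik3r1, the regulatory subunit, had 0.19 (adjusted p = 0.122) and Agrp 0.15 (adjusted p = 0.759).

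In hindbrain, Foxo1 was higher in early afternoon than in late morning. Its PM mean was above its AM mean in 8 of 8 groups of one time point and genotype, and in 5 of these the PM pools all lay above the AM pools. HOM at T3, among these 5, had a single PM pool. For mTor in hindbrain these counts were 4 of 8 and 0. They were not made for the other target genes, and groups of so few pools often separate without any difference. In NON mice the AM and PM means were 2035 and 2542 normalised counts at T1 (n = 2 and 3), 2153 and 2460 at T2 (n = 2 and 5) and 1825 and 2326 at T3 (n = 2 and 4). The PM and AM pools of NON mice overlapped at T2 and were apart at T1 and T3.

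Averaged over the 3 time points in NON mice, hindbrain Foxo1 rose from AM to PM by 0.29 ± 0.06 (SE, adjusted p = 8.4e-04 by edgeR), a change of +22.2%. It was the only one of the 43 genes called in this comparison (2.33%), and over all regions and groups 2.47% of collection time tests were called. The call was kept whichever single pool was left out and in 8 of 9 alternatives, among them TMM, DESeq2 and the exclusion of the pools of little RNA (0.31, adjusted p = 5.79e-04). It was lost with scaling to the positive control probes (0.54, adjusted p = 0.863). Single groups did not pass the test on their own. The differences in NON were 0.32, 0.19 and 0.35, in HEM 0.27 at T2 and 0.12 at T3, and in HOM 0.08 at T1 and 0.11 at T2.

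Averaged over all genotypes and time points, an alternative added after seeing the data, hindbrain Foxo1 rose by 0.23 ± 0.04 (adjusted p = 2.72e-05 by edgeR; 9.3% of genes called), and by 0.24 (adjusted p = 1.16e-05) without the pools of little RNA. The same average was 0.0051 in midbrain (95% interval -0.05 to 0.06), 0.12 in left cortex (-0.06 to 0.30) and -0.10 in right cortex (-0.24 to 0.04). Compared within pools, the PM effect of Foxo1 was larger in hindbrain than in midbrain by 0.17 and than in right cortex by 0.23 (adjusted permutation p = 0.0136 for both), and without the pools of little RNA by 0.14 (adjusted permutation p = 0.0352) and 0.27 (adjusted permutation p = 0.0143). Against left cortex the difference was 0.05 (adjusted permutation p = 0.684), and 0.13 (adjusted permutation p = 0.347) without those pools. AM and PM pools came from different mice, so that this is a difference between groups of animals and not a course within an animal.

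mTor was lower in the afternoon in left cortex. There the HEM pools of T3 had 5468, 5059, 4957 and 5200 normalised counts in the morning and 4545 and 3924 in the afternoon, without overlap. The log2 fold change was -0.29 ± 0.06 (adjusted p = 0.003 by edgeR), the only call in this comparison (2.33%). It was lost without PM pool 8/10 (-0.19, adjusted p = 0.487), under TMM (-0.16, adjusted p = 0.148), with DESeq2 (-0.14, adjusted p = 0.915) and without B2m (-0.24, adjusted p = 0.0882). With positive controls it was 0.66 (adjusted p = 0.0504). Over all genotypes and time points, mTor in left cortex fell by 0.12 ± 0.02 from AM to PM (adjusted p = 1.51e-04 by edgeR; 34.9% of genes called), and its PM mean was higher in 1 of 8 groups. The same average was -0.08 in right cortex (adjusted p = 0.0961), 0.0046 in midbrain and 0.05 in hindbrain (0.0082 without the pools of little RNA). In NON pools alone the hindbrain average of mTor was 0.22, and 0.15 without the pools of little RNA. It was 0.39 without T3 NON pool 4/11, which leaves 1 AM pool in that group. Neither gene had another call among its 32 collection time comparisons.

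**Figure D5:**
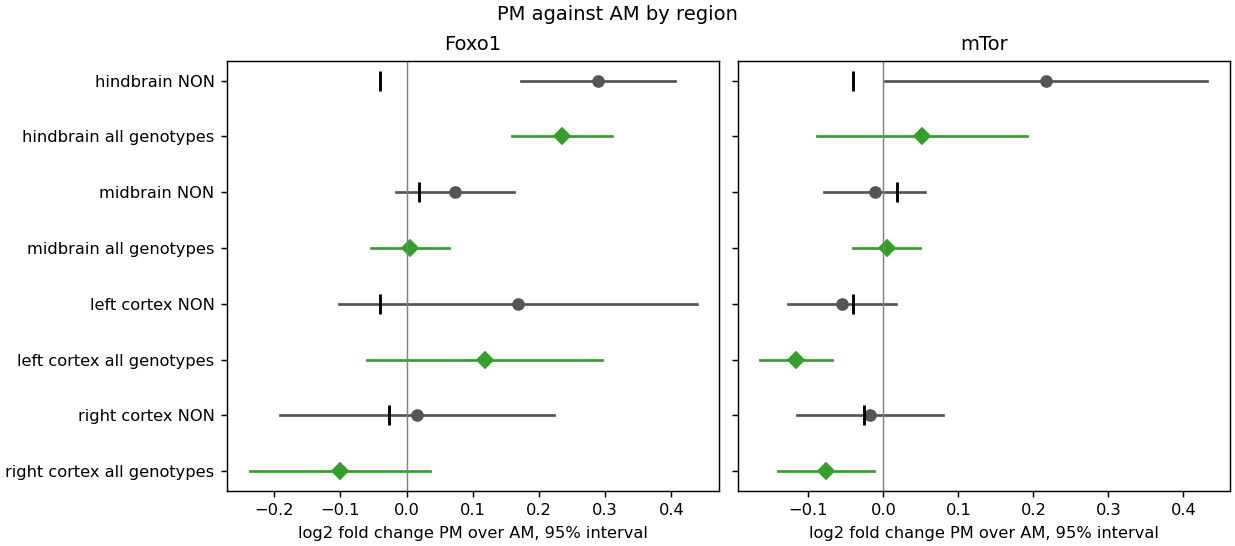
Log2 fold change of PM over AM in each region for Foxo1 (left) and mTor (right), averaged over time points in NON pools (grey circles) and over all genotypes and time points (green diamonds), with 95% intervals and black ticks for the median of all 43 genes in NON pools. Foxo1 in hindbrain lies at 0.29 and 0.23, and mTor in left cortex over all genotypes at -0.12; the scales of the panels differ.

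Over all collection time tests of the hindbrain, 1 of 344 was called, that of Foxo1. In the NON average Akt1 had 0.16 (adjusted p = 0.275), Pde3b 0.26 (adjusted p = 0.439) and Agrp -0.91 (adjusted p = 0.15). The Agrp value includes the pools of little RNA, and hindbrain Agrp was near background, above it in 40 of 46 pools. Over all regions the 8 genes from the insulin receptor to Akt were called lower in the afternoon in 9 and higher in 1 of 256 tests (Irs2 lower in 7 of 32), and the 7 leptin pathway genes lower in 10 and higher in 0 of 224 (Ptp1b lower in 8 of 32). For all genes these were 29 and 5 of 1376, and the medians were -0.04, -0.05 and -0.03.

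Within groups, pools with more Foxo1 had more mTor in midbrain. Over deviations from group means, Pearson's r was 0.48 in midbrain (48 pools, adjusted permutation p = 0.00252; Spearman's rho 0.43, adjusted permutation p = 0.0096) and 0.36 without the 2 farthest pools. In hindbrain r was 0.31 (45 pools, adjusted permutation p = 0.0494), while rho was 0.19 and did not pass (adjusted permutation p = 0.309). There r was 0.14 without the 2 farthest pools, on which it therefore rested. Without the pools of little RNA r was 0.31 (41 pools, adjusted permutation p = 0.0614). In left cortex r was 0.32 (46 pools, adjusted permutation p = 0.0494), and 0.26 without the 2 farthest pools. Its rho was 0.18 and did not pass (adjusted permutation p = 0.309). In right cortex r was 0.01 (48 pools, adjusted permutation p = 0.941). At T1, T2 and T3 taken alone, r in midbrain was 0.58, 0.46 and 0.45 and in hindbrain 0.70, 0.09 and 0.37. Both values of a pool share the reference genes as denominator.

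The genes whose deviations were most like those of Foxo1, by the mean over the 4 regions of Pearson's r across 187 pools, were Arrb2, a beta-arrestin that takes part in receptor desensitisation (0.48), Pde3b (0.48) and Jak2 (0.47). For mTor they were Arrb1, the other beta-arrestin (0.61), Gsk3b (0.60) and Akt2 (0.47). The mean r between Foxo1 and mTor was 0.28. These values describe pools that share reference genes and RNA amount, and no test was made of them.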

How the data were processed

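The authors deposited raw nCounter counts for each pool and probe: 43 target genes, 3 reference genes, 6 positive and 8 negative control probes. No filter before deposit is given in the sources used here. Of 198 replicate pairs compared, 0 were identical. Groups came from the labels (5 T2 right cortex pools are titled homozygous but carry hemizygous in a second label; the title was used), and the 12 HEM pools without a collection time entered only comparisons that need none. Both genes and all lists were chosen with earlier results of these data known. Raw counts were tested with edgeR 4.0.16 in R 4.3.3 (quasi-likelihood, library size set to the geometric mean of the reference genes, prior count 0.125, p-values adjusted in each comparison for 43 genes after Benjamini and Hochberg, all pools of a region in one fit). Comparisons of genotype, dose, time point and collection time groups needed 2 pools on either side; averages were contrasts of the same fit and also used groups with 1 pool, as did 1 comparison of previously diabetic pools (4 against 1). Region tests had the pool as a block, since the same mice gave all 4 regions. Ratios were log2 ratios of raw counts without a pseudocount. Correlations and the comparisons of effects between regions within pools used log2 values with a pseudocount of 0.5. These tests used 100000 permutations or exact ones (Python 3.11.15, NumPy 2.4.6, SciPy 1.17.1). Named besides Foxo1 and mTor were the 3 genes most like each and up to 4 members of each list, those called most often; other members and B2m were chosen after their values were seen. Alternatives were TMM, DESeq2 1.42.0, positive controls, each reference gene left out (1 is not named here), subtraction of the negative control mean, a filter on low counts, subsets of pools and single pools left out. Background was the negative control mean plus 2 SD, and little RNA meant under 20% of the region's median reference value. Calculations were tested on simulated data. The study used another package for such counts and a log2 fold-change limit of 1.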

Additional observations from a re-analysis of the deposited data

Results flagged for a closer look

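Effects of genotype and of collection time were compared between hindbrain and each other region within pools, in 18 tests chosen after seeing the data, and 9 had an adjusted permutation p under 0.05. For Foxo1 the PM effect in hindbrain was larger than in midbrain by 0.1679 on the log2 scale and than in right cortex by 0.227. The HOM effect on Foxo1 was larger in hindbrain than in midbrain by 0.1682, and the HEM effect was larger than in left cortex by 0.4097 and than in right cortex by 0.4596. For mTor the HOM effect was larger in hindbrain than in midbrain by 0.3275 and than in left cortex by 0.3344, and the PM effect was larger than in left cortex by 0.1801 and than in right cortex by 0.1876. Without the 3 hindbrain pools of little RNA, 3 of the 18 passed, all for Foxo1: the PM effect against midbrain and against right cortex and the HEM effect against right cortex.

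Among groups with at least 2 pools on either side, there were 4 cases in which every transgenic pool of one region lay above all NON pools and every one of another region lay below them; these differences were not tested. At T2 AM, Foxo1 of HEM was higher in hindbrain and lower in right cortex, with effects 0.71 apart on the log2 scale, and mTor of HEM was lower in left cortex and higher in hindbrain (0.20 apart) and in midbrain (0.18 apart). At T1 AM, mTor of HOM was higher in hindbrain and lower in midbrain (0.25 apart). Each of these groups holds 2 pools against 2 NON pools, where full separation is frequent without any difference. The other target genes were not searched in this way, so no share over all genes stands beside the 4 cases. The HOM group of T3 PM, a single pool in each region, was left out of this count and held 2 more such cases. Its Foxo1 value was 2909 in hindbrain (highest NON pool 2544) and 2579 in right cortex (lowest NON pool 2792). Its mTor value was 5232 in midbrain (highest NON pool 5118) and 4400.5 in left cortex (lowest NON pool 4401.2). Among 22 groups of 4 to 10 pools, 0 had a pool that stood apart from the others by Dixon's limit.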

How the results depend on the processing

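Of 1124 values recomputed under another setting, 943 kept their side of the threshold, among them uncalled values whose sign changed. Another 114 lost and 39 gained a call, 26 reversed a direction that was called before or after, and 2 moved. Of 4915 with a single pool left out, 4753 kept their side of the threshold and 0 reversed a called direction. The counts of Foxo1 calls, in the order region (3), genotype (3), average genotype (2), time point (9) and collection time (1) comparisons, became 5, 1, 1, 5 and 3 with TMM. With DESeq2 they became 4, 0, 2, 6 and 2, and without B2m 5 for region, 0 for genotype and 5 for time point. The 9 time point calls were all lower at the later time, and the 5 with TMM and 6 with DESeq2 all higher. They became 5 for region and 1 for average genotype without a second reference gene, 14 for time point without the third reference gene, and 15 for time point with positive controls. Region gave 5 in NON pools only and 5 in T1 pools only. Genotype gave 0 with only the 2 groups compared and 1 adjusted over all comparisons of a region, and collection time gave 2 without the pools of little RNA. A log2 fold change over 1 left 0 Foxo1 calls in each, and one over 0.58 left 0, 0, 1 and 0 outside the regions.

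The mTor calls, region (5), genotype (4), average genotype (2), time point (21) and collection time (1), became 2, 0 and 7 for genotype, average genotype and time point with TMM, and 4, 2, 0, 4 and 0 with DESeq2. Counts not given here lay within 1.5 times the first ones. Average genotype gave 4 with positive controls and 1 without B2m, without a second reference gene and without the pools of little RNA. Region gave 3 in T3 pools only, and genotype 1 with only the 2 groups compared. A log2 fold change over 1 left 0, 0, 0, 1 and 0, and one over 0.58 left 0, 2, 0, 7 and 0. Between HOM and HEM, 1 call appeared for each gene with positive controls, without B2m and without the third reference gene. Without the pools of little RNA the correlation of the genes in hindbrain was 0.3141 and no longer passed after adjustment. In left cortex no pool was left out and the correlation stayed at 0.3211. Its adjusted permutation p became 0.0596, because the p-values of the regions are adjusted together. With positive controls the correlation was 0.9912 in hindbrain, 0.8454 in midbrain, 0.886 in left cortex and 0.8482 in right cortex.

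Directions that reversed where either value was called were as follows, as log2 fold changes. Sign changes without a call in either setting are not listed, such as Foxo1 in right against left cortex without the replicate block (-0.0058, against 0.0016). With TMM, mTor was -0.0904 in midbrain against hindbrain, and Foxo1 was -0.17 and -0.18 in left and right cortex against hindbrain. With TMM, Foxo1 in hindbrain was 0.22 (T2 to T3, NON), 0.0891 (T2 to T3, HEM PM) and 0.36 (T1 to T3, NON), and in right cortex 0.0189 (T1 to T3, NON). mTor in right cortex from T1 to T3 was 0.0418 in NON and 0.0377 in HOM AM. With DESeq2, mTor was -0.0400 in midbrain against hindbrain and Foxo1 -0.12 in left cortex against hindbrain. For Foxo1 in hindbrain DESeq2 gave 0.20 and 0.13 from T2 to T3 in NON and HEM PM, and 0.34 and 0.35 from T1 to T3 in NON and HOM AM. For mTor it gave 0.00017 in midbrain (T2 to T3, HEM PM) and 0.0121 in right cortex (T1 to T3, NON). Without the third reference gene, Foxo1 was -0.12 in right cortex against hindbrain, and in T3 pools only mTor was -0.0706 and -0.0021 in left and right cortex against midbrain. With positive controls, mTor was 0.26 in hindbrain (T1 to T3, HEM PM), -0.17 in left cortex (T1 to T2, NON), 0.66 in left cortex (PM against AM, HEM T3) and 0.44 in left cortex (HOM average), and Foxo1 was 0.13 in midbrain and 0.42 in left cortex (HOM averages). The causes were not tested.

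With single pools left out, the Foxo1 calls ran from 3 to 4 (region), 2 to 4 (genotype), 2 to 3 (average genotype), 8 to 11 (time point), 1 to 2 (collection time) and 0 to 1 (HOM against HEM), and the mTor calls from 5 to 5, 2 to 5, 1 to 3, 20 to 21, 0 to 3 and 0 to 0. Without the replicate block the region comparisons gave 3 Foxo1 and 5 mTor calls, with 0.95 for Foxo1 in midbrain against hindbrain, and no call changed. Precision is limited by the few pools of a group and, in the T3 hindbrain, by counts as low as 58.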

Other observations

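The 12 prediabetic HEM pools with no labelled collection time belong in no matched comparison. In left cortex they had 4687, 3489 and 5052 normalised counts of Foxo1, against 2283 in the HEM PM pool and 2796, 3779, 2368, 5471 and 2863 in the NON pools of T1, whose highest pool lay above all 3, and up to 4494 in the HOM pools. In right cortex they had 4031, 5311 and 5318, against 2907 and 3674 in the HEM PM pools and 3059, 3354, 3832, 3932 and 3863 in the NON pools, and up to 4563 in the HOM pools. In hindbrain the corresponding pools had 2894, 2083 and 2204. The first of these lay above all NON pools (1953 to 2601) and the others within their range. In midbrain they had 6093, 4293 and 5203, and the lower 2 of these lay below all NON pools (5498 to 5934) and the highest above them. These pools carry no label that would place them at a time of day.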
